A study of Mus musculus with 6 samples.

Results

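The D-type cyclins, their kinase partners and the inhibitors that act on the pair were followed in RNA-seq counts of LSK cells, the bone marrow fraction that lacks lineage markers and carries Sca1 and c-Kit. The set was fixed by symbol and held 10 genes of the 15845 in the count table: the cyclins Ccnd1, Ccnd2 and Ccnd3, the kinases Cdk4 and Cdk6, the Cip/Kip inhibitors Cdkn1a, Cdkn1b and Cdkn1c, and the Ink4 inhibitors Cdkn2c and Cdkn2d. All 10 passed the filter on low counts, which kept 13149 genes. The mice were C57BL/6 with the genotype Mx1Cre; Jak2VF/VF, so every library, vehicle included, carried the homozygous Jak2 V617F allele of myeloproliferative neoplasm and no library came from Jak2 wild-type mice. One group of 3 mice had received TP-3654, named in the series title as a Pim1 inhibitor, at 150 mg/kg/day for 6 weeks, and the other group of 3 had received vehicle, which the labels give as PBS. Mx1Cre is driven by an interferon-responsive promoter that is active in blood cells and in other tissues. The labels give no age.

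D cyclins are made in response to cytokines and growth factors, bind Cdk4 or Cdk6, and start the phosphorylation of the retinoblastoma protein that releases E2F transcription factors at the end of the G1 phase of the cell cycle. Ink4 proteins bind the kinases themselves and block the cyclin from joining. Cip/Kip proteins bind cyclin-kinase pairs, restrain Cdk2, and can also help D cyclins assemble with their kinases. In blood stem cells, Cdk6 is known for setting how fast a resting cell enters the cycle, and Cdkn1c and Cdkn1b for keeping cells at rest. PIM kinases are known to phosphorylate the proteins made from Cdkn1a and Cdkn1b, a step that mRNA counts do not report.

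The 300-base windows around the RefSeq starts of the kinase genes are shown because the 2 kinases were the most highly counted of the 10 genes and differ in one motif, the E-box CACGTG, which MYC and related factors can bind. The plus-strand windows run from 250 bases before to 50 after the start on GRCm38.p6, at chr10:127063285-127063584 for Cdk4 and at chr5:3343643-3343942 for Cdk6, with each E-box in capitals. The Cdk6 window belongs to a start inside the annotated gene, which begins at position 3341004.
Cdk4: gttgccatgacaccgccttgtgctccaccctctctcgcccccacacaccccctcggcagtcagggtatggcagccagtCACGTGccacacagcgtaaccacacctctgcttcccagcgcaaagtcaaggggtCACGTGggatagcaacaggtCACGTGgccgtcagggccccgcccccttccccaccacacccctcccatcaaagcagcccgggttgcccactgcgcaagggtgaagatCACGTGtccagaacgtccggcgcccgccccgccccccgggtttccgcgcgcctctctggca
Cdk6: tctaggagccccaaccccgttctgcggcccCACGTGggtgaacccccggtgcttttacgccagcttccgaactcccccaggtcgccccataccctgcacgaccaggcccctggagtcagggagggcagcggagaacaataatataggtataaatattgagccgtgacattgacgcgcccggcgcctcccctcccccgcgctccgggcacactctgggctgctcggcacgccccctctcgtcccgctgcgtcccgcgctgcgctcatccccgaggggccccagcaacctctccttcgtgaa
The motif is its own reverse complement, so one search covers both strands. Cdk4 held 4 E-boxes, beginning 172, 118, 98 and 11 bases before the start, and Cdk6 held 1, beginning 220 bases before it. Of the other 5 genes with a window, Cdkn2c held 1, in the window of its second listed start, beginning 34 bases after that start, and the other 4 held 0. Of 32851 promoter windows of the same length, 7.15% held at least 1 E-box and 8 windows, or 0.0244%, held at least 4. Windows were on hand for 7 of the 10 genes, with Ccnd1, Ccnd2 and Cdkn1c unmatched. Neither the STAT5 letters TTCNNNGAA, found in 8.3% of all windows, nor the E2F letters TTTCGCGC, TTTGGCGC, TTTCCCGC and TTTGCCGC, found together in 2.26%, occurred on either strand in a window of these 7 genes. A match here is a run of letters and was not tested as a binding site.

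Library totals ran from 20582057 to 25315596 counts, and a count of 3 stood for 0.119 to 0.146 CPM (counts divided by the effective library size, which TMM adjusts). TP-3654 replicate 3 stood apart from the other 5 libraries on the first principal component of log2 CPM, which held 51.2% of the variance, and printed log2 fold changes above 0.1 in size that moved by over 1.5 times when it or another library was left out are followed by that value. The sort markers Kit (503 ± 73.0 CPM with TP-3654 and 372 ± 6.41 with vehicle; SD, n = 3 each) and Ly6a (63.1 ± 4.49 and 52.0 ± 15.3 CPM, in the same order), which encodes Sca1, were counted in every library. Kit was higher in every TP-3654 library (436, 492 and 581 CPM) than in any vehicle library (365, 377 and 375 CPM). Its log2 fold change was 0.43 (adjusted p = 0.166 in edgeR). Marker sums differed between groups for some cell stages and overlapped for others, and no single marker passed an adjusted p under 0.05 in edgeR. Summed over 12 blood stem cell markers, the level was 611 to 692 CPM with TP-3654 and 354 to 425 CPM with vehicle, and 7 of the 12 had an unadjusted p under 0.05, all higher. Summed over 8 granulocyte-monocyte progenitor markers, it was 2220 to 7415 CPM with TP-3654 and 10160 to 13000 CPM with vehicle, with 5 lower and 0 higher. Of 12 mature neutrophil and monocyte markers the sum was 198 to 328 CPM with TP-3654 and 303 to 890 CPM with vehicle, where vehicle replicate 1 alone was high and the other vehicle libraries, at 310 and 303 CPM, lay inside the TP-3654 range. S100a8, a neutrophil gene, stood at 39.0 CPM in that library and at 0.450 and 0.458 CPM in the other vehicle libraries. Summed lymphoid-primed progenitor markers stood at 302 to 408 CPM with TP-3654 and 187 to 276 CPM with vehicle. Of 6 T and NK cell markers, nearly all counts came from Nkg7 (146, 216 and 134 CPM with TP-3654 and 224, 250.4 and 263 CPM with vehicle), Cd3e, Cd3g and Cd8a did not exceed 0.135 CPM in any library, and the NK marker Klrb1c was higher with TP-3654 (2.45, 2.98 and 3.58 CPM) than with vehicle (2.13, 2.12 and 2.29 CPM). Of 7 erythroid markers the sum was 552 to 1096 CPM with TP-3654 and 575 to 1060 CPM with vehicle, with members that differed. Gata1 was lower in every TP-3654 library (76.3, 56.3 and 25.8 CPM) than in any vehicle library (93.0, 84.0 and 80.9 CPM). Klf1 and Epor were lowest in TP-3654 replicate 3 (5.88 and 5.47 CPM), while Hba-a1 and Hbb-bt were highest in TP-3654 replicate 1 (421 and 239 CPM). None of these markers had an unadjusted p under 0.05. Of 6 B cell markers, of which Pax5 was not in the table, the sum was 28.6 to 31.4 CPM with TP-3654 and 28.5 to 44.5 CPM with vehicle. The part of these shifts in the values below was not tested, and in bulk RNA fewer cells of a type and less RNA per cell cannot be told apart.

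None of the 10 genes passed at an adjusted p under 0.05 in edgeR's quasi-likelihood test of TP-3654 against vehicle, and none had an unadjusted p under 0.05. Across all 13149 tested genes the share called was 0% (smallest adjusted p = 0.0701), and 17.1% had an unadjusted p under 0.05. DESeq2, which called 4.9% of all genes it tested, called 0 of the 10, and limma-voom, which called 0% of all genes, called 0. The authors' deposited table, in which 5.32% of genes have an adjusted p under 0.05, calls 0 of the 10. Groups did not overlap for 1 of the 10, Cdkn1c, against 25.9% of all tested genes. The median log2 fold change (TP-3654 over vehicle) of the 10 genes was -0.03, against 0.01 for all tested genes, with 4 fitted values above 0 and 6 below. In absolute size, 5 of the 10 exceeded 0.21, the median over all tested genes.

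**Figure D1:**
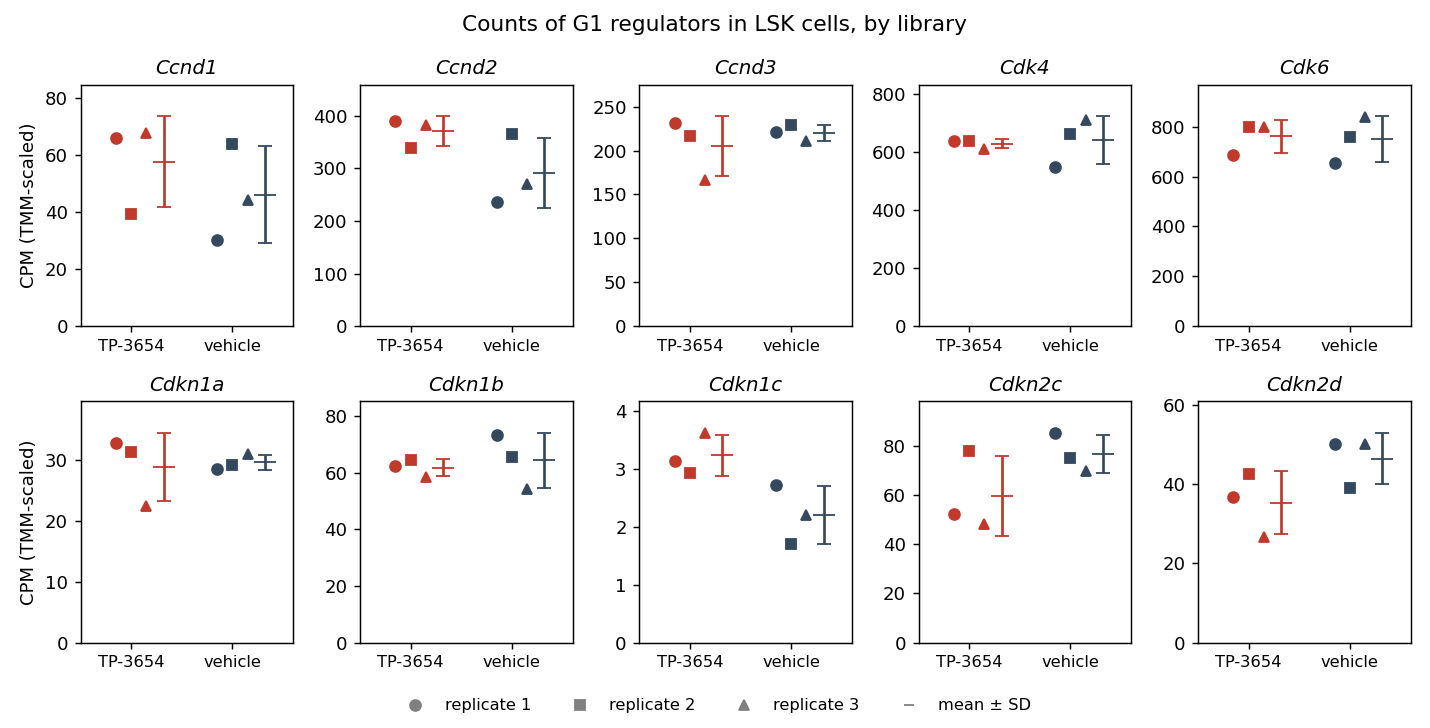
TMM-scaled CPM of each gene (vertical axis, from 0) in the 3 TP-3654 and the 3 vehicle libraries, with the mean and SD beside the points. Only Cdkn1c has all TP-3654 libraries (2.94 to 3.63 CPM) above all vehicle libraries (1.71 to 2.72 CPM); the other 9 genes overlap.

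In the GRCm38.p6 annotation of RefSeq, Ccnd2 (127125162 to 127152188) and Cdkn1b (134920401 to 134925525) lie on chromosome 6, Ccnd3 (47505051 to 47599689) and Cdkn1a (29090979 to 29100722) on chromosome 17, and Ccnd1 and Cdkn1c on chromosome 7. Cdkn2c lies on chromosome 4 (109660876 to 109666756), Cdk6 on chromosome 5 (3341004 to 3531008), Cdkn2d on chromosome 9 (21288459 to 21291421) and Cdk4 on chromosome 10 (127063535 to 127067288). Levels of different genes are compared per length, as CPM per kilobase of all annotated exons of the gene. Cdk4 stood first, at 194 ± 5.06 CPM per kilobase with TP-3654 and 197 ± 25.4 with vehicle (SD, n = 3 each). Cdk6 followed at 54.4 ± 4.70 with TP-3654 and 53.6 ± 6.56 CPM per kilobase with vehicle. By raw counts Cdk6 lay above Cdk4, but its exons sum to 13989 bases and those of Cdk4 to 3249, so that per length Cdk4 was 3.56-fold above Cdk6 with TP-3654 and 3.68-fold with vehicle. With all exons as the length, the lowest Cdk4 library did not reach down to the highest Cdk6 library. By the same length the lowest Cdk6 library (46.8 CPM per kilobase) lay above the highest Ccnd2 library (41.6). Behind the kinases, Ccnd2, Cdkn2d, Cdkn2c and Ccnd3 had vehicle means between 25.1 and 30.9 CPM per kilobase and overlapped with one another. With TP-3654, and with all exons as the length, Ccnd2 (39.5 ± 2.97 CPM per kilobase) was above the other 3 in every library. The means of those 3 were 22.2 to 23.4. Cdkn1b, Ccnd1 and Cdkn1a came next, at means of 13.6, 12.2 and 8.10 with TP-3654 and 14.2, 9.77 and 8.31 with vehicle, with neighbours in the order overlapping. Cdkn1c was last, at 1.59 ± 0.173 CPM per kilobase with TP-3654 and 1.08 ± 0.247 with vehicle. With the longest transcript as the length, Cdk4 and Cdk6 stayed first and second and Cdkn1c last. In vehicle libraries, however, Ccnd3 took rank 3 in place of rank 6. By that length Cdk6 had means of 66.1 CPM per kilobase with TP-3654 and 65.1 with vehicle. Ccnd2 had means of 58.7 and 45.95 and Ccnd3 of 53.1 and 57.1, in the same order. The separations by library given here were read with the length of all exons only.

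**Figure D2:**
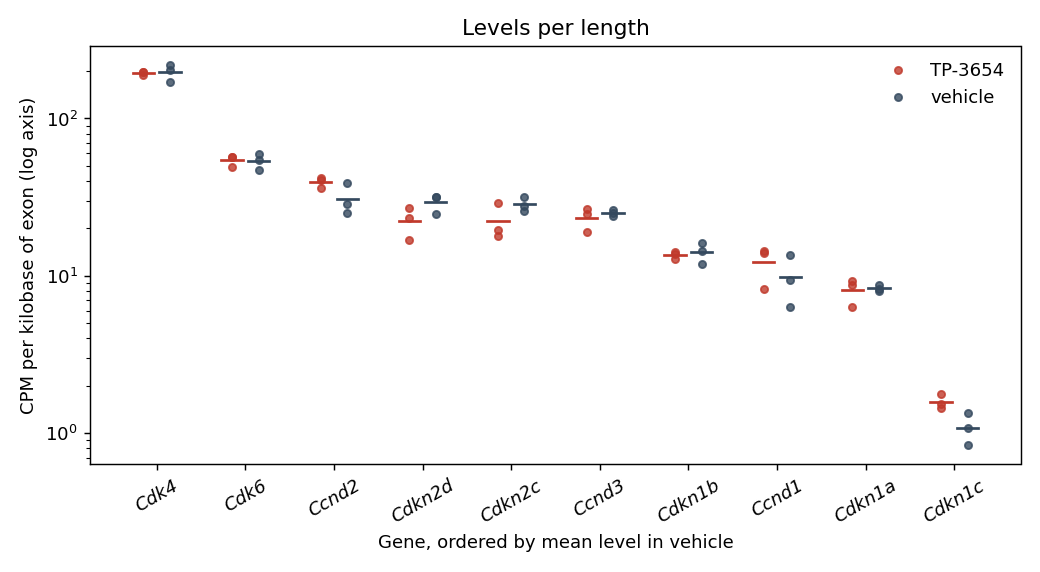
CPM per kilobase of exon on a log axis for each gene, ordered by the vehicle mean, with points for libraries and lines for group means. Cdk4 lies alone at the top (169 to 219 in the 6 libraries) and Cdkn1c alone at the bottom (0.839 to 1.78).

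Among the D cyclins, Ccnd2, the D cyclin induced by cytokines through STAT5 in blood cells, had the smallest p of the 10 genes. It stood at 391, 339 and 383 CPM in TP-3654 replicates 1 to 3 and at 237, 365 and 271 CPM in vehicle replicates 1 to 3. The TP-3654 libraries were close together, while vehicle replicate 2 lay within their range and the other 2 vehicle libraries below it. The log2 fold change was 0.35 (SE 0.16, 95% interval -0.02 to 0.72, adjusted p = 0.307). Leaving out vehicle replicate 1 gave 0.22, and leaving out vehicle replicate 2 gave 0.54. In the authors' deposited table its log2 fold change is 0.36 with an adjusted p of 0.164.

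Ccnd1, a D cyclin that answers mitogen signalling in many tissues and lies on chromosome 7 (144929931 to 144939831), was the most variable. Its level was 65.9, 39.1 and 67.4 CPM in TP-3654 replicates 1 to 3 and 30.03, 63.9 and 44.1 CPM in vehicle replicates 1 to 3. TP-3654 replicate 2 lay among the vehicle libraries and vehicle replicates 2 and 3 within the treated range, and the coefficient of variation was 27.8% with TP-3654 and 36.9% with vehicle. Its log2 fold change of 0.32 (95% interval -0.46 to 1.10, adjusted p = 0.618) turned to 0.09 when vehicle replicate 1 was left out and to 0.62 when vehicle replicate 2 was. Without TP-3654 replicates 1, 2 and 3 in turn it was 0.21, 0.54 and 0.18. Its exons overlap 1100 bases of LTO1 on the opposite strand. Ccnd3, the D cyclin needed for expansion of thymocytes and of maturing erythroid cells, stood at 232, 216 and 167 CPM with TP-3654 and at 221, 229 and 211 CPM with vehicle. TP-3654 replicate 3 was below all other libraries. Its log2 fold change was -0.10 (95% interval -0.41 to 0.20, adjusted p = 0.701), and 0.02 once that library was left out. Leaving out TP-3654 replicate 1 gave -0.20. The exons of Ccnd3 overlap 361 bases of Bysl on the opposite strand. Bysl stood at 83.05, 85.5 and 69.9 CPM with TP-3654 and at 74.8, 88.7 and 86.15 CPM with vehicle, also lowest in TP-3654 replicate 3. Any part of Bysl reads in the Ccnd3 counts was not tested.

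The mix of D cyclins is independent of the scaling between libraries. Per length, Ccnd2 made up 50.7%, 52.3% and 55.0% of the summed D cyclin level in TP-3654 libraries and 44.4%, 49.5% and 46.3% in vehicle libraries. Those shares did not overlap, though TP-3654 replicate 1 and vehicle replicate 2 were close. Their size depends on the length used, here that of all annotated exons. With the longest transcript as the length, the vehicle mean of Ccnd3 (57.1 CPM per kilobase) was above that of Ccnd2 (45.95). The TP-3654 means were then 53.1 for Ccnd3 and 58.7 for Ccnd2. Tested as a ratio, Ccnd3 over Ccnd2 was lower by 0.49 on the log2 scale with TP-3654 (two-sided exact permutation p = 0.2, adjusted p = 0.7 over 7 ratios), with 1 vehicle library inside the TP-3654 range. The summed D cyclin level was 82.0, 69.0 and 74.1 CPM per kilobase with TP-3654 and 56.7, 78.5 and 62.2 with vehicle, so the groups overlapped.

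For the kinases the intervals were narrow. Cdk4, the partner of D cyclins in most dividing cells, was counted at 639, 641 and 611 CPM with TP-3654 and at 551, 664 and 711 CPM with vehicle. All 3 TP-3654 libraries lay inside the vehicle range, at a log2 fold change of -0.03 (95% interval -0.32 to 0.26, adjusted p = 0.928). That interval runs from 0.804-fold to 1.20-fold. Cdk4 shares 641 exonic bases with Tspan31 on the opposite strand, which stood at 33.0 to 41.3 CPM with TP-3654 and 44.6 to 48.8 CPM with vehicle, a small level beside that of Cdk4. Cdk6, the other partner of D cyclins, was counted at 685, 798 and 800 CPM with TP-3654 and at 655, 757 and 838 CPM with vehicle. Here too the TP-3654 libraries lay inside the vehicle range, with a log2 fold change of 0.02 (95% interval -0.28 to 0.33, adjusted p = 0.945) or 0.822-fold to 1.25-fold. The log2 ratio of Cdk6 to Cdk4 counts was 0.10, 0.32 and 0.39 in TP-3654 libraries and 0.25, 0.19 and 0.24 in vehicle libraries (difference 0.04, exact permutation p = 0.7, adjusted p = 1).

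**Figure D3:**
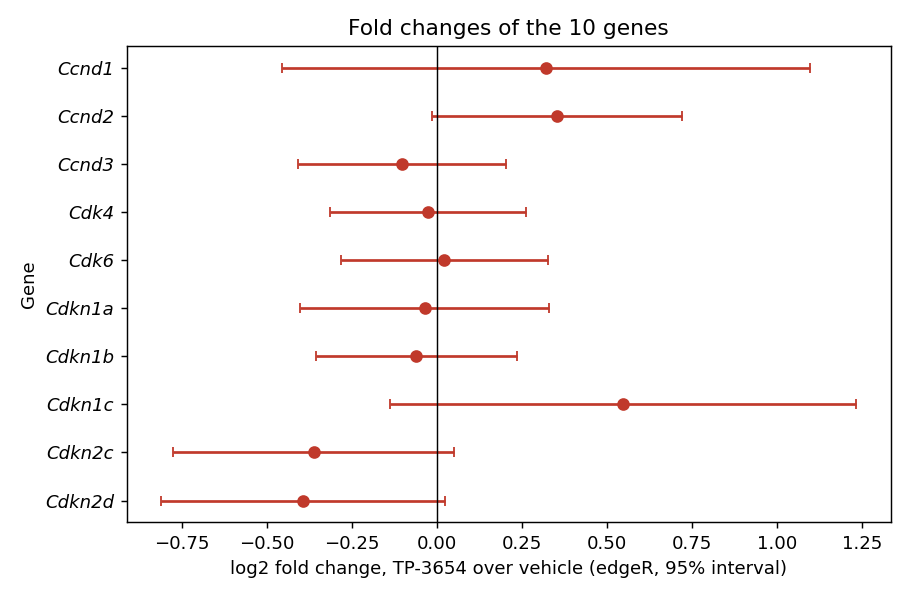
edgeR log2 fold change of each gene, TP-3654 over vehicle (horizontal axis), with its 95% interval. Every interval includes 0, and the intervals of Cdk4, Cdk6, Ccnd3 and Cdkn1b are the narrowest.

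In the Cip/Kip family, Cdkn1a, which encodes the p53-induced inhibitor p21, stood at 32.8, 31.2 and 22.4 CPM with TP-3654 and at 28.5, 29.2 and 30.9 CPM with vehicle. TP-3654 replicate 3 was low and the other 2 treated libraries were above all vehicle libraries. With that library in, the log2 fold change was -0.04 (95% interval -0.40 to 0.33, adjusted p = 0.922), and with it left out 0.10. Cdkn1b, which encodes p27, stood at 62.5, 64.4 and 58.5 CPM with TP-3654 and at 73.6, 65.5 and 54.3 CPM with vehicle. The treated libraries again lay within the vehicle range (log2 fold change -0.06, 95% interval -0.36 to 0.23, adjusted p = 0.830), and the value was 0.05 without vehicle replicate 1. The log2 ratio of Cdkn1a to Cdkn1b differed by -0.01 between groups (exact permutation p = 1, adjusted p = 1).

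Cdkn1c, an imprinted gene on chromosome 7 (143458339 to 143461059) that encodes p57 and is known for keeping stem cells at rest, was counted at 68, 76 and 71 reads in TP-3654 replicates 1 to 3 and at 69, 38 and 48 reads in vehicle replicates 1 to 3. Scaled, these were 3.15, 2.94 and 3.63 CPM with TP-3654 and 2.72, 1.71 and 2.20 CPM with vehicle. Every treated library was above every vehicle library, as for 14.3% of all tested genes, and the gap between the nearest libraries was small. The log2 fold change of 0.55 (SE 0.30, 95% interval -0.14 to 1.23, adjusted p = 0.376) was the largest of the 10 and the interval allowed 0.909-fold to 2.35-fold. Against Cdkn1b, Cdkn1c was higher by 0.62 on the log2 scale with TP-3654, with groups that did not overlap (exact permutation p = 0.1, the smallest that 3 against 3 libraries allow, adjusted p = 0.7). The authors' deposited table gives a log2 fold change of 0.71 with an adjusted p of 0.415. Its exons share 625 bases with Gm44732 on the opposite strand. The summed stem cell markers given above were also higher with TP-3654, though Slamf1 was lower. The part of these markers in the Cdkn1c values was not tested.

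**Figure D4:**
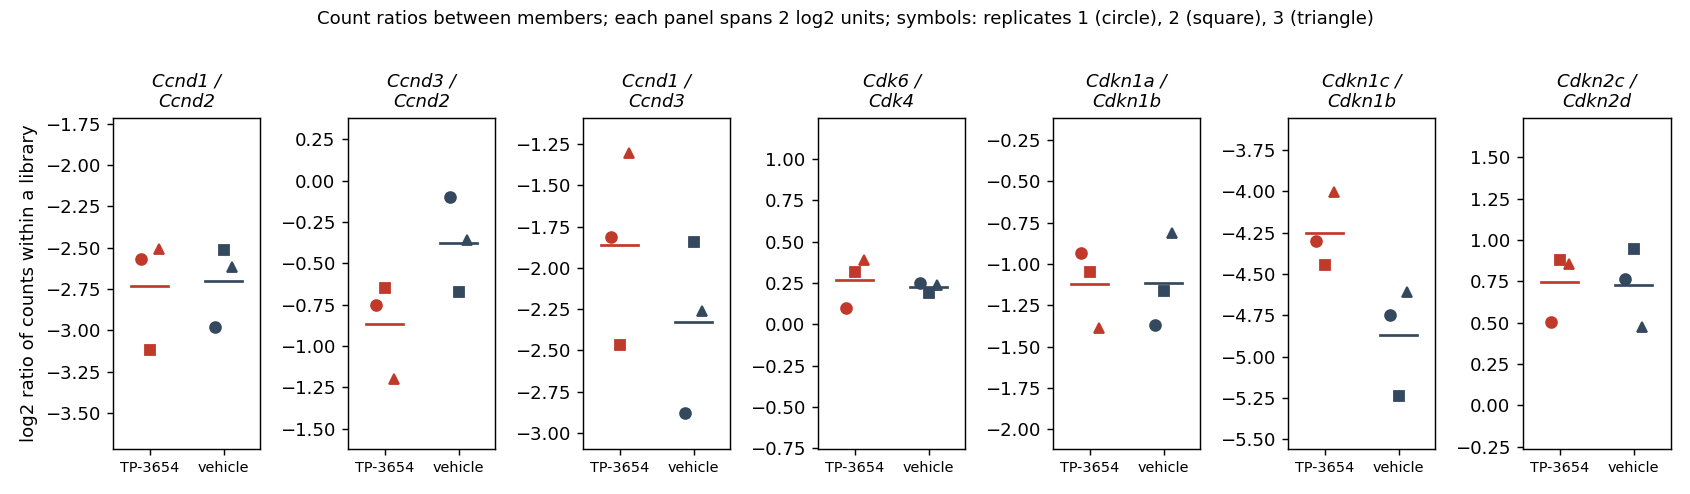
Log2 ratio of raw counts within each library for 7 pairs of the 10 genes, with the group mean as a line and panels of equal span. Groups are apart only for Cdkn1c over Cdkn1b (-4.44 to -4.00 with TP-3654, -5.24 to -4.61 with vehicle).

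The Ink4 pair had the lowest fold changes of the 10. Cdkn2c, which encodes p18 and limits self-renewal of stem cells in mice, stood at 52.4, 78.0 and 48.3 CPM with TP-3654 and at 85.1, 75.0 and 69.6 CPM with vehicle. TP-3654 replicates 1 and 3 were below all vehicle libraries and replicate 2 was inside their range. Cdkn2c had a log2 fold change of -0.36 (SE 0.18, 95% interval -0.78 to 0.05, adjusted p = 0.341). Leaving out TP-3654 replicate 2 gave -0.61 and leaving out TP-3654 replicate 3 gave -0.24. In the authors' deposited table it is -0.23 with an adjusted p of 0.632.

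Cdkn2d, which encodes the Ink4 protein p19, stood at 36.9, 42.5 and 26.7 CPM with TP-3654 and at 50.2, 39.0 and 50.2 CPM with vehicle. Vehicle replicate 2 was lower than TP-3654 replicate 2, and the other libraries were apart. Cdkn2d had a log2 fold change of -0.39 (SE 0.19, 95% interval -0.81 to 0.02, adjusted p = 0.313), or -0.24 when TP-3654 replicate 3 was left out. The deposited table of the authors gives -0.31 with an adjusted p of 0.211. Neither Ink4 gene shares a 31-base run with another annotated gene or overlaps one in its exons. Their ratio was nearly the same in both groups, with a difference of 0.02 in the log2 ratio of Cdkn2c to Cdkn2d (exact permutation p = 0.9, adjusted p = 1). Per length, the summed Ink4 level was 42.9, 56.0 and 34.9 CPM per kilobase with TP-3654 and 63.6, 52.7 and 57.8 with vehicle, an overlap by TP-3654 replicate 2. The other Ink4 genes were at the edge of detection. Cdkn2a stood at 0.555, 0.426 and 0.102 CPM with TP-3654 and 0.512, 0.540 and 0.0458 CPM with vehicle, and Cdkn2b, which failed the filter, at 0.0511 to 0.155 CPM with TP-3654 and 0.138 to 0.270 CPM with vehicle.

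Around the 10 genes, 8 lists of partners and targets were read from the same fit, in which edgeR called 0 list members and 0% of all genes. The lists are described by counts at an unadjusted p under 0.05, where 10.2% of all tested genes were higher and 6.84% lower. Of 13 pocket proteins and E2F factors, which D cyclin kinases control, 1 was higher and 0 lower. That one was Tfdp2, a dimer partner of E2F proteins (97.2 ± 3.16 CPM with TP-3654 and 78.9 ± 6.03 with vehicle, SD, n = 3 each; adjusted p = 0.207). E2f8 (log2 fold change -0.29) and E2f7 (0.26), both repressors, came next without passing, at -0.19 for E2f8 without TP-3654 replicate 3 and 0.15 for E2f7 without vehicle replicate 3. Of 9 tested genes for late G1 cyclins and CDK activation, 0 had such a p. Ccna2, the cyclin of S phase (-0.35), Mnat1, of the CDK-activating kinase (-0.23), and Cdk2 (0.15) had the smallest p among them. Ccna2 was at -0.20 without TP-3654 replicate 3 and at -0.54 without TP-3654 replicate 1, and Mnat1 at -0.12 without vehicle replicate 3.

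Of 23 replication genes that E2F proteins switch on, 0 had an unadjusted p under 0.05, 0 were apart between groups, and the median log2 fold change was 0.05. Pcna (0.32), Pola1 (0.20) and Dnmt1 (0.21) had the smallest p. Leaving out TP-3654 replicate 3 gave 0.10 for Pcna, 0.11 for Pola1 and 0.10 for Dnmt1, and leaving out vehicle replicate 1 gave 0.12 for Dnmt1. The 20 mitotic genes lay lower instead: all 20 fitted values were below 0, 9 had an unadjusted p under 0.05, 10 had groups that did not overlap (11.6% of all tested genes did so in that direction), and the median was -0.31. DESeq2 called 4 of them lower. Kif2c, a microtubule-depolymerising kinesin, stood at 53.1 ± 6.78 CPM with TP-3654 and 76.0 ± 1.30 CPM with vehicle (adjusted p = 0.0971 in edgeR and 0.0088 in DESeq2). Cdc20, the activator of the anaphase-promoting complex, had a log2 fold change of -0.56 and the cyclin gene Ccnb2 one of -0.66 (adjusted p = 0.157 for each in edgeR). The summed granulocyte-monocyte progenitor markers were also lower with TP-3654, and their part in the mitotic values was not tested.

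**Figure D5:**
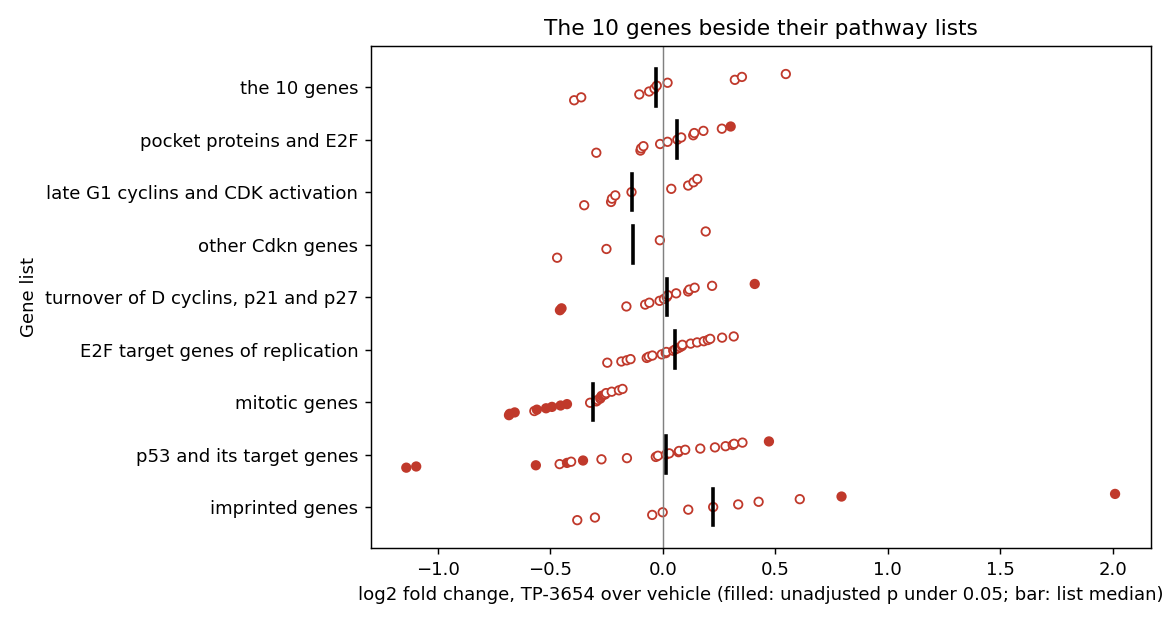
edgeR log2 fold change (TP-3654 over vehicle) of each tested gene in the set of 10 and in 8 lists, filled where the unadjusted p was under 0.05, with the list median as a black bar. The mitotic genes all lie below 0 (median -0.31), while the replication genes spread on both sides (median 0.05).

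Of 15 tested genes that turn over D cyclins, p21 and p27, 1 was higher and 2 were lower. Cks1b, the cofactor with which Skp2 recognises p27, stood at 115 ± 19.9 CPM with TP-3654 and 158 ± 5.91 CPM with vehicle (log2 fold change -0.46, adjusted p = 0.169 in edgeR and 0.0493 in DESeq2). Fzr1, which activates the anaphase-promoting complex in G1 (-0.45, adjusted p = 0.196), was lower in each TP-3654 library, and Rnf123, a ubiquitin ligase for p27 (0.41, adjusted p = 0.241), higher. Rnf123 was at 0.23 without TP-3654 replicate 3, its highest library. Among 4 tested other genes with a Cdkn symbol, 0 had an unadjusted p under 0.05, with Cdkn3 at -0.47, Cdkn2aipnl at -0.25 and Cdkn2aip at 0.19. Without TP-3654 replicate 3, Cdkn3 was at -0.31 and Cdkn2aipnl at -0.11. Of p53 and its targets, which share a regulator with Cdkn1a, 1 of 23 was higher and 5 were lower, at a median of 0.01. Pmaip1 (11.9 ± 4.09 CPM with TP-3654 and 26.2 ± 5.04 with vehicle, adjusted p = 0.0931 in edgeR and 0.00143 in DESeq2), Fas (-1.10) and Bax (-0.35), all of cell death, had the smallest p. Fas was counted at a low level, 0.87 ± 0.284 CPM with TP-3654 and 1.88 ± 0.198 CPM with vehicle. Rrm2b, from the same list, was higher in every TP-3654 library (11.5, 13.1 and 17.2 CPM) than in any vehicle library (10.7, 9.95 and 9.49 CPM).

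Of 22 imprinted genes, 11 were tested, 2 were higher and 0 lower at an unadjusted p under 0.05. Sgce (8.56, 7.04 and 8.94 CPM with TP-3654 and 4.10, 4.68 and 5.36 CPM with vehicle, adjusted p = 0.148 in edgeR and 0.0493 in DESeq2) was apart between groups. Dlk1 (2.22, 4.18 and 0.664 CPM with TP-3654 and 0.749, 0.585 and 0.412 CPM with vehicle, log2 fold change 2.01, and 1.30 without TP-3654 replicate 2) and Grb10 (-0.38) were not. Neighbours of Cdkn1c in its imprinted cluster, picked after their values were seen, did not pass: Kcnq1ot1 stood at 6.79 ± 1.45 CPM with TP-3654 and 5.81 ± 2.60 CPM with vehicle (log2 fold change 0.22), and Slc22a18 had a log2 fold change of 0.11. With 1 library left out in turn, the fold change of Kcnq1ot1 ran from 0.01 to 0.65 and that of Slc22a18 from -0.11 to 0.29, in each case with its lowest value when vehicle replicate 2 was left out and its highest when vehicle replicate 3 was. Phlda2, a further gene of that cluster, was the other listed imprinted gene whose groups did not overlap, as for Cdkn1c. Its level was 1.53, 1.51 and 1.23 CPM with TP-3654 and 0.906, 1.17 and 1.10 CPM with vehicle (log2 fold change 0.43). Phlda2 did not pass either, and the groups overlapped for Kcnq1ot1 and Slc22a18. Cd81, a more highly counted gene of that cluster, overlapped as well. Its level was 119, 121 and 101 CPM with TP-3654 and 112, 112 and 118 CPM with vehicle.

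Among genes with a mean log2 CPM of at least 1, the pattern of Ccnd2 over the 6 libraries was most nearly shared by Gnpda2, Rnf219 and Arhgap35, whose centred log2 CPM lay within a root mean square difference of 0.0421, 0.0590 and 0.0618 of it. Of the Pim kinases, Pim1 (log2 fold change 0.28, adjusted p = 0.479; 0.45, 0.07 and 0.14 when TP-3654 replicate 1, TP-3654 replicate 2 or vehicle replicate 2 was left out) and Pim3 (-0.08, adjusted p = 0.771) overlapped between groups, while Pim2 stood at 91.2 ± 33.2 CPM with TP-3654 and 39.8 ± 7.13 CPM with vehicle (adjusted p = 0.107 in edgeR and 0.000251 in DESeq2).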

How the data were processed

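RNA-seq of sorted LSK cells gave 6 libraries, 3 per group, which the design text calls biological replicates. The authors deposited raw read counts per Entrez gene, and a table comparing the groups. That deposited table holds, per the file headers, a signal (the mean normalized count), a log2 fold change and its standard error, a score (the Wald statistic) and a raw and an adjusted p-value. The submitters' processing notes list the tools SAMtools 1.9.0, HISAT2 2.1.0 and DESeq2 beside the build names GRCm38 and mm10. No source used here gives the read counter, annotation or strand setting, so reads of overlapping antisense genes cannot be told apart.

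The deposited fold changes did not follow from the deposited counts of all 6 libraries: over 10504 genes with a deposited mean of at least 100, the median absolute difference from a DESeq2 fit was 0.0691 (log2) with all libraries and 0.0354 without TP-3654 replicate 3, and 7.83% and 15.3% of genes were within 0.01. The cause was not tested.

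Symbols came from the deposited table, otherwise from RefSeq (GRCm38.p6); 15839 of 15845 genes received one. The main test was edgeR 4.0.16 in R 4.3.3 (filterByExpr, TMM, robust quasi-likelihood F test, Benjamini-Hochberg over 13149 genes), checked on simulated counts. Each SE was the log2 fold change without its sign divided by the root of F. Ratios used counts plus 0.5 and an exact permutation test over 20 splits. Alternatives were DESeq2 1.42.0, limma 3.58.1, other scalings and filters, a replicate block and leaving out each library. Exon lengths and overlaps came from a GENCODE annotation of GRCm38. The 10 genes and the lists were chosen with earlier results of these data known. Named from each list are the 3 tested genes with the smallest edgeR p, beside the 10 genes, the sort markers, the Pim genes and the 3 genes nearest in pattern to the member with the smallest p; other names were chosen after their values were seen. Replicate libraries differed by more than sampling noise (chi-square per degree of freedom 16.6 to 112).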

Additional observations from a re-analysis of the deposited data

How the results depend on the processing

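In edgeR 0 genes were called with all 6 libraries, 5 with no low-count filter and 0 to 31 when 1 library was left out (31 without TP-3654 replicate 3, 18 without TP-3654 replicate 2, 7 without TP-3654 replicate 1). DESeq2 called 644 genes, 391 higher and 253 lower, and limma-voom with sample weights 290. None of the 16 alternatives tried called any of the 10 genes. With the replicate number as a block, edgeR called 3 genes, 1 higher and 2 lower; deviations of same-numbered libraries correlated at -0.0117, -0.015 and 0.031, and not every library correlated best with its own number. In the lists DESeq2 called 4 mitotic genes, 1 of turnover, 1 of p53 and 1 imprinted. Ccnd1, Ccnd2, Cdkn1c, Cdkn2c and Cdkn2d kept their sign under all 16 alternatives. The log2 fold changes near 0 did not. With sample weights those of Cdk4, Cdk6 and Cdkn1a were 0.0014, -0.00046 and 0.0863. Leaving out 1 library gave -0.13 to 0.0536 for Cdk4, -0.0682 to 0.11 for Cdk6, -0.14 to 0.10 for Cdkn1a, -0.17 to 0.0451 for Cdkn1b and -0.20 to 0.015 for Ccnd3. The ratio differences then ran from -0.17 to 0.17 for Ccnd1 over Ccnd2, -0.0161 to 0.13 for Cdk6 over Cdk4, -0.13 to 0.14 for Cdkn1a over Cdkn1b and -0.11 to 0.14 for Cdkn2c over Cdkn2d. Those that kept their sign ran from -0.64 to -0.32 for Ccnd3 over Ccnd2, 0.18 to 0.77 for Ccnd1 over Ccnd3 and 0.43 to 0.74 for Cdkn1c over Cdkn1b. The cause was not tested. Depth limits Cdkn1c, with 38 to 76 reads a library, more than the other members. A missed threshold does not show that levels were equal.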
